A study of Mus musculus with 8 samples.

Results

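The 10 genes described here are Atf4, Atf5, Atf3, Ddit3, Trib3, Chac1, Asns, Sesn2, Gdf15 and Fgf21: the transcription factors and targets of the integrated stress response with the hormones GDF15 and FGF21, which cells release under mitochondrial stress. They were taken by symbol, and each matched 1 Ensembl identifier, which gives 10 genes of the 47643 in the count files. RNA was measured in whole kidneys of 8 mice. The 4 control animals were wild type (WT), and the 4 conditional knockouts (cKO) carried Six2-Cre and homozygous floxed Cox10, whose product is needed to assemble cytochrome c oxidase. Replicates 1, 3 and 4 of each genotype were 3 months old and replicate 2 of each was 2.5 months old. The labels do not say whether the WT animals carried Cre or floxed alleles. Six2-Cre acts in nephron progenitors, so the tubule and podocyte lineage is deleted and the collecting duct, vessels, stroma and blood cells are not.

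The integrated stress response starts when a kinase phosphorylates the initiation factor eIF2alpha. General protein synthesis then slows, while the mRNA of ATF4 is translated more because short open reading frames in its leader no longer capture the ribosomes. ATF4 protein turns on genes of amino acid supply and further regulators, and defects of the mitochondrial respiratory chain are known to engage this route and to raise circulating GDF15 and FGF21. ATF4 is controlled largely at translation, and RNA counts do not measure its protein.

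Column totals ran from 9454830 to 15838026 counts per library, and levels are CPM, counts scaled to a common library size. All 10 genes had whole-number counts in every library (within 0.01). Cox10 itself, the deleted gene, had 24.6, 19.6, 19.2 and 20.4 CPM in WT and 19.5, 10.9, 20.8 and 22.3 in cKO (log2 fold change -0.19, edgeR adjusted p = 0.619), so its count does not check the genotype labels. Which exons are floxed is not stated, and a count over the whole gene does not measure the loss of 1 exon. The genotypes are therefore those of the labels throughout. Reads of Y-linked genes were present in WT 2, WT 3, WT 4 and cKO 3 and were at 0 in the other libraries, so 1 of 4 WT and 3 of 4 cKO libraries lacked them, and sex and genotype are partly confounded. None of the 10 proximal tubule markers was at 0 in all libraries, and their summed level was 11648 to 16188 CPM in WT and 3320 to 9939 in cKO kidneys. In whole tissue, fewer cells of a type and less RNA per cell cannot be told apart.

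ATF4 binds DNA with C/EBP proteins at a composite element whose core was searched as TGATGNAA on both strands, in windows from 250 bases before to 50 bases after each RefSeq start (GRCm38.p6, the same assembly as mm10). The 10 genes had 12 such windows, 2 each for Atf5 and Gdf15, and 5 genes had 1 match each. Of all 32851 windows of this length 3.97% held a match. The cAMP response element TGACGTCA was found in 0 of the 12 windows and in 1.79% of all windows. The sequences below show where the core lies in these 5 genes, in capitals and printed 5′ to 3′ along the gene's own strand. For Atf3 (chr1:191183341-191183583, minus strand), Chac1 (chr2:119350992-119351228, plus strand) and Fgf21 (chr7:45615491-45615740, minus strand) the bases printed hold no annotated exon and lie before the RefSeq start, that of Atf3 being inside the span of the annotated gene, and for Asns (chr6:7693214-7693243, minus strand) and Trib3 (chr2:152344028-152344057, minus strand) a site of 30 bases.
Atf3: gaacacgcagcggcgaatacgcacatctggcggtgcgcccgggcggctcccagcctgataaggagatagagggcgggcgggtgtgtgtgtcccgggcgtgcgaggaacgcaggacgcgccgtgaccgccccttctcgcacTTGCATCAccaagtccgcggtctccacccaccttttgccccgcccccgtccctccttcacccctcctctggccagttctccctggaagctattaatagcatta
Chac1: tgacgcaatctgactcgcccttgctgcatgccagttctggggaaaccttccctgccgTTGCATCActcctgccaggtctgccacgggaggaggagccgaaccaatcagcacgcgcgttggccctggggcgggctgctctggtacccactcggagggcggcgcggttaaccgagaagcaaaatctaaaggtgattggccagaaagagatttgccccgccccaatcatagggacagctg
Fgf21: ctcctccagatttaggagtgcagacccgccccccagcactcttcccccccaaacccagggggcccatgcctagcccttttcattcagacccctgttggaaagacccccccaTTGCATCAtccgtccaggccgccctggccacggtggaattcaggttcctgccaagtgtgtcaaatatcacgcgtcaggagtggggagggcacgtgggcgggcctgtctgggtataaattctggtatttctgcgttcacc
Asns: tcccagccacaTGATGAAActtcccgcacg
Trib3: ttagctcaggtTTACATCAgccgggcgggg

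Atf3, Chac1 and Fgf21 held the same 8 letters, TTGCATCA, which is the core read on the opposite strand. Trib3 held TTACATCA 14 bases after its start, and Asns held TGATGAAA 23 bases before its RefSeq start, within an exon of the GENCODE annotation. In the windows of Atf4, Atf5, Ddit3, Sesn2 and Gdf15 these letters were not found. A match is a description of the sequence, not a measured binding site.

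The main question was whether these genes differed between cKO and WT kidneys. The low-count filter kept 9 of the 10, all but Fgf21. Of these, 6 rose in cKO: Trib3, Gdf15, Atf3, Atf5, Asns and Ddit3. Atf4, Chac1 and Sesn2 did not pass, and 0 fell. Across all 13829 tested genes 9.57% were called higher, 7.14% lower and 16.7% in either direction by edgeR at an adjusted p under 0.05. When only library totals were used for scaling, the median of all genes was 0.15, the calls went from 1323 higher and 987 lower to 1866 and 550, and 6 of the 9 genes were called higher. The median log2 fold change was 1.55 for the 9 genes and -0.01 for all tested genes. In 5 of the 9 genes every cKO library lay above every WT library, which held for 13.1% of all tested genes. With a sex term in the fit 5 of the 9 were called higher, against 5.17% of all genes, and Ddit3 was the one lost. Without WT 4 and cKO 4, whose file headers carry later sample numbers, 4 were called, against 3.01% of all genes, and Asns was lost as well.

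**Figure D1:**
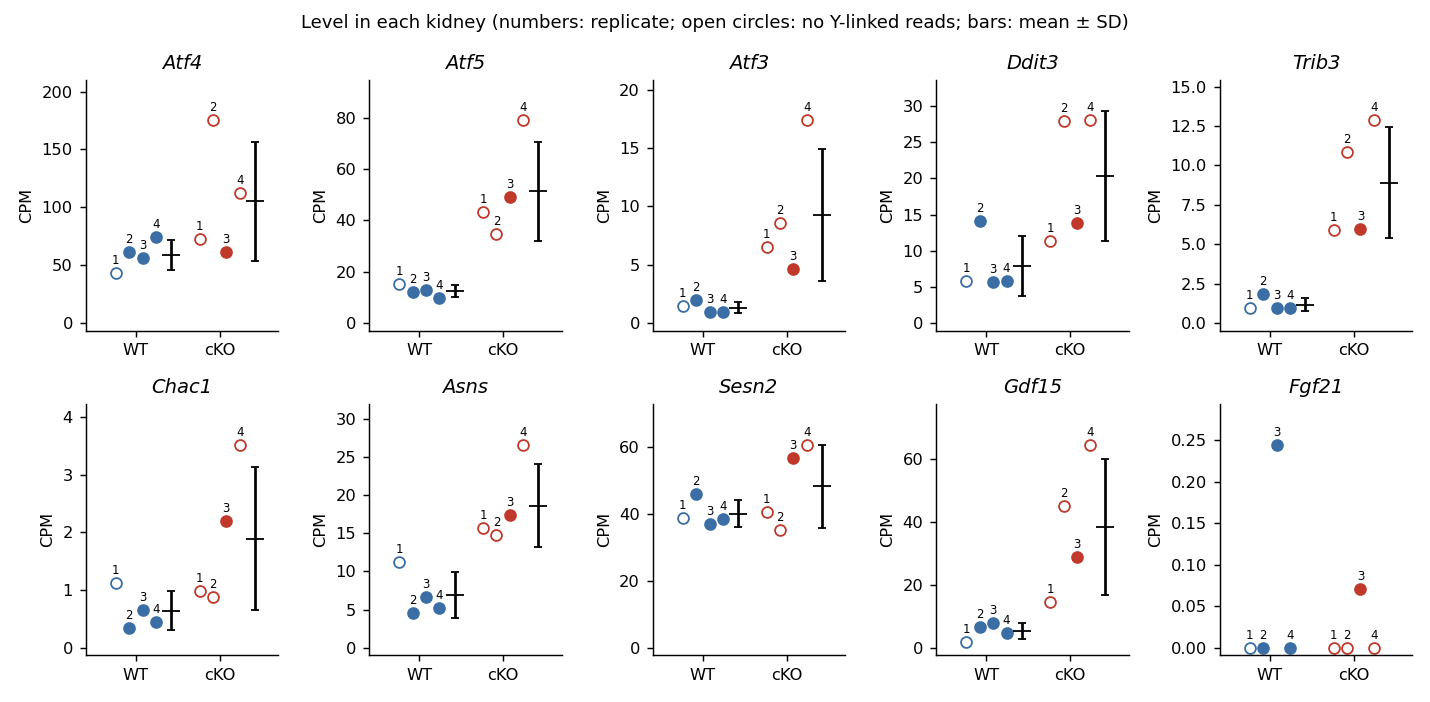
Level of each gene in CPM (linear axis) in the 4 WT and 4 cKO kidneys, with the replicate number at each point, open circles for libraries without Y-linked reads, and bars for mean ± SD (none drawn for Fgf21, which had 3 and 1 counts in all). For Atf5, Atf3, Trib3, Asns and Gdf15 the 2 groups do not overlap, while Atf4, Ddit3, Chac1 and Sesn2 overlap.

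Among the transcription factors, Atf4 (ENSMUSG00000042406, mm10 chromosome 15, 80255184 to 80257541) had 43.5, 61.8, 56.3 and 74.8 CPM in the WT kidneys, in the order of their numbers, and 72.8, 175, 61.2 and 113 in the cKO kidneys, in the same order. The kidneys cKO 2 and cKO 4 stood above all others, and cKO 1 and cKO 3 lay within the WT range. Its log2 fold change was 0.83 (SE 0.32, 95% interval 0.13 to 1.54), which did not pass after adjustment over all genes (edgeR adjusted p = 0.0959). The exact two-sided permutation p was 0.143. Among libraries lacking Y-linked reads its log2 fold change was 1.47, and among libraries with such reads -0.07, each resting on 1 library on 1 side.

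Atf5, a relative of Atf4 that is translated by the same leader mechanism and is linked to the mitochondrial unfolded protein response, gave 15.4, 12.3, 12.8 and 9.96 CPM in the WT libraries and 43.2, 34.6, 49.0 and 79.0 in the cKO libraries. The lowest cKO kidney was above the highest WT kidney. The mean went from 12.6 ± 2.25 to 51.5 ± 19.3 CPM (SD, n = 4), which is 2.03 on the log2 scale (SE 0.27, edgeR adjusted p = 0.000871). Atf5 (ENSMUSG00000038539) lies on chromosome 7 from 44812256 to 44816658 and shares 82 exonic bases with Nup62 and Il4i1 on the opposite strand. The libraries were stranded, but the strand setting of the counting is not given in the sources used here.

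Atf3, a stress-inducible factor that is also an immediate early gene, had 1.47, 1.95, 0.980 and 0.970 CPM in WT and 6.53, 8.59, 4.62 and 17.4 in cKO, on 61 and 517 counts. All cKO kidneys were above all WT kidneys, and cKO 4 was the highest. Atf3 is ENSMUSG00000026628, chromosome 1, 191170296 to 191218039. On the log2 scale the difference was 2.81 (SE 0.45, edgeR adjusted p = 0.0022). Of 12 tested immediate early genes 7 rose, 0 fell and 5 did not pass, Dusp1 among them at -0.94 on the log2 scale, and the list had a summed level of 178 to 256 CPM in WT and 283 to 453 in cKO. That count was 4 with a sex term, without the 2.5-month pair, or without WT 3, WT 4 or cKO 4, and 2 without WT 4 and cKO 4 together. Of all tested genes 9.57% were called higher and 7.14% lower. The part of the immediate early genes in the Atf3 difference was not tested.

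Ddit3 encodes CHOP, a factor that promotes cell death under lasting stress. It had 5.78, 14.1, 5.72 and 5.88 CPM in WT and 11.4, 28.0, 13.9 and 28.0 in cKO. WT 2 was more than 8 CPM above the other WT kidneys and also above cKO 1 and cKO 3, so the groups overlapped. The groups differed by 1.37 on the log2 scale (SE 0.39, edgeR adjusted p = 0.0345, exact permutation p = 0.0857). The call was lost with a sex term (log2 fold change 1.32, edgeR adjusted p = 0.166), without WT 4 and cKO 4 together (1.03, edgeR adjusted p = 0.26), and when WT 1, WT 3, WT 4, cKO 2 or cKO 4 alone was left out, at edgeR adjusted p values up to 0.113. Ddit3 (ENSMUSG00000025408, chromosome 10, 127290774 to 127296288) shares 68 exonic bases with Mars on the opposite strand, and the annotation holds a second overlapping Ddit3 model that is not used here.

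Trib3, a pseudokinase induced by ATF4 and CHOP that dampens AKT signalling and feeds back on ATF4, gave the largest log2 fold change of the 9. It is ENSMUSG00000032715, on chromosome 2 from 152337422 to 152344032. Trib3 had 0.949, 1.84, 0.980 and 0.970 CPM in WT and 5.92, 10.9, 5.98 and 12.9 in cKO, on 54 and 478 counts. The lowest cKO kidney was above the highest WT kidney. The difference was 2.93 on the log2 scale (SE 0.38, edgeR adjusted p = 0.000739), or 7.53-fold between the means. With a sex term it was 2.76 (edgeR adjusted p = 0.0047).

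Of the targets in amino acid and redox supply, Asns, the asparagine synthetase (ENSMUSG00000029752, chromosome 6, 7675169 to 7693254), had 11.2, 4.59, 6.61 and 5.24 CPM in WT and 15.7, 14.8, 17.4 and 26.6 in cKO. The groups did not overlap, though WT 1 was closer to cKO 2 than to WT 2. Asns differed by 1.43 on the log2 scale (SE 0.32, edgeR adjusted p = 0.0119), and it was 1.05 (edgeR adjusted p = 0.133) without WT 4 and cKO 4. Chac1 (ENSMUSG00000027313, chromosome 2, 119351229 to 119354381), which breaks down glutathione, was low throughout, with 13, 3, 8 and 7 counts in WT and 16, 8, 31 and 54 in cKO. That is 1.12, 0.344, 0.653 and 0.453 CPM against 0.977, 0.870, 2.21 and 3.52 CPM. Only cKO 3 and cKO 4 stood above the WT range. The log2 fold change of 1.55 had a wide 95% interval from 0.34 to 2.76 and did not pass (edgeR adjusted p = 0.0757, exact permutation p = 0.0857), though it did with DESeq2 and when WT 1 was left out (edgeR adjusted p = 0.0427).

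Sesn2 encodes sestrin 2, a leucine sensor that restrains mTORC1 and is a target of both ATF4 and p53. The gene is ENSMUSG00000028893, on chromosome 4 from 132492032 to 132510501. Sesn2 had 38.8, 46.0, 37.0 and 38.4 CPM in WT and 40.6, 35.03, 56.8 and 60.7 in cKO. cKO 2 was below every WT kidney and only cKO 3 and cKO 4 exceeded them. The groups differed by 0.27 on the log2 scale, with a 95% confidence range of -0.20 to 0.75 (edgeR adjusted p = 0.409, exact permutation p = 0.314), so a rise above 0.75 lay outside that range.

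**Figure D2:**
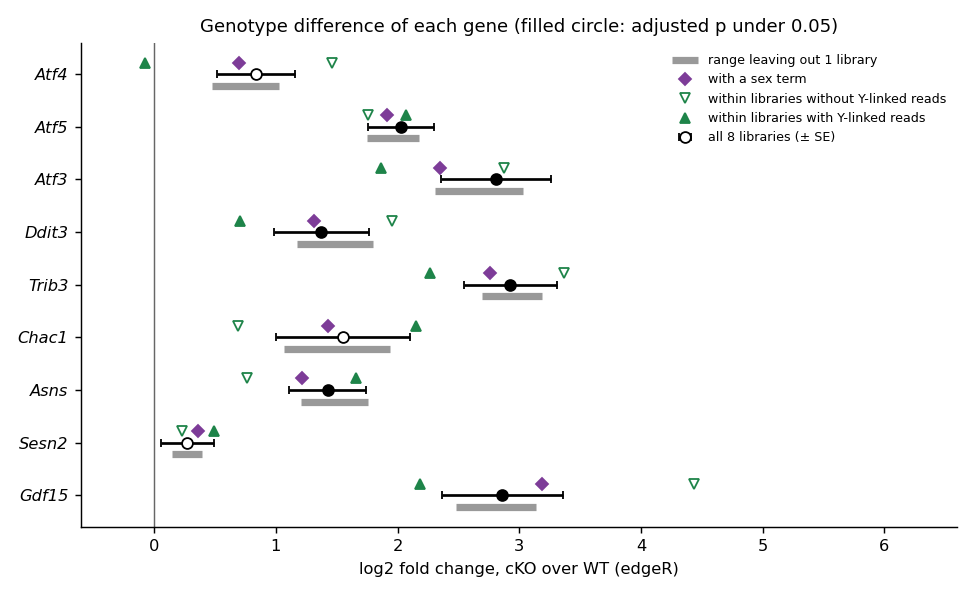
Log2 fold change of cKO over WT for the 9 tested genes (x axis), with circles and SE bars from all 8 libraries, grey bars for the range when 1 library is left out, diamonds with a sex term, and triangles within libraries with (filled) or without (open) Y-linked reads. Trib3, Gdf15 and Atf3 lie near 2.8 to 2.9, Sesn2 lies near 0.3, and Atf4 within the libraries with Y-linked reads is the value below 0.

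Of the 2 secreted factors, Gdf15 rose and Fgf21 was hardly detected. GDF15 is a TGF-beta family hormone that acts on appetite through a receptor in the hindbrain, and its gene is also a p53 target. Gdf15 (ENSMUSG00000038508, chromosome 8, 70629393 to 70632456) had 1.90, 6.43, 7.92 and 4.79 CPM in WT and 14.3, 45.2, 28.9 and 64.5 in cKO, on 249 and 2044 counts. The lowest cKO kidney, cKO 1, was above the highest WT kidney, WT 3. The mean went from 5.26 ± 2.58 to 38.2 ± 21.6 CPM (SD, n = 4), 7.27-fold, or 2.86 on the log2 scale (SE 0.50, edgeR adjusted p = 0.00335). With a sex term it was 3.19 (edgeR adjusted p = 0.0114). Among libraries lacking Y-linked reads it was 4.44, where WT 1 alone stood for WT, and among the others 2.18, where cKO 3 alone stood for cKO.

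FGF21 is a metabolic hormone released mainly by the liver. Fgf21 (ENSMUSG00000030827, chromosome 7, 45613886 to 45615490) had 3 counts in WT 3, 1 in cKO 3 and 0 in the other 6 libraries. A count of 0 allows up to 3 counts, which is 0.183 to 0.344 CPM in those libraries. A difference between the genotypes was not detectable at this depth, and no fold is given. Some receptors had few reads too. Gfral, the GDF15 receptor, had 0 counts in all libraries, Klb, the FGF21 co-receptor, had 2 in WT and 20 in cKO, and Ret, the co-receptor of GFRAL, had 24 and 49. Of the 5 receptor genes tested 3 fell and 0 rose, against 7.14% lower and 9.57% higher among all tested genes. Kl fell from 573 ± 173 to 152 ± 79.5 CPM (SD, n = 4), log2 fold change -1.91 (edgeR adjusted p = 0.00954). It is the co-receptor of another hormone, FGF23, and is expressed by the tubule. Of the FGF receptors, Fgfr1 and Fgfr2 did not pass (log2 fold change -0.20 and 0.23, edgeR adjusted p = 0.492 and 0.466). Fgfr4 fell by 1.23 and Fgfr3 fell by 0.80 on the log2 scale. Without WT 4 and cKO 4 these 3 calls were lost, and with a sex term that of Kl was kept (edgeR adjusted p = 0.036) and those of Fgfr4 and Fgfr3 were lost. That of Fgfr3 was also lost when WT 1, WT 3, WT 4, cKO 2, cKO 3 or cKO 4 was left out, at edgeR adjusted p values up to 0.158.

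Levels between genes were compared per kilobase of exon. In WT kidneys the order was Atf4 at 25.1 CPM per kilobase, Sesn2 at 11.5, Atf5 at 6.33, Ddit3 at 4.597, Gdf15 at 2.84, Asns at 2.53, Atf3 at 0.623, Trib3 at 0.557 and Chac1 at 0.393. Atf5 and Ddit3, Ddit3 and Gdf15, Gdf15 and Asns, Atf3 and Trib3, and Trib3 and Chac1 differed by less than the larger SD of the pair. In cKO kidneys the order was Atf4 at 44.7, Atf5 at 25.8, Gdf15 at 20.6, Sesn2 at 13.9, Ddit3 at 11.8, Asns at 6.81, Atf3 at 4.31, Trib3 at 4.19 and Chac1 at 1.16. Every pair of neighbours in the cKO order differed by less than the larger SD of the pair, except Trib3 and Chac1.

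The 9 tested genes did not follow one order across the cKO kidneys. Of them 8, all but Atf4, were highest in cKO 4. The kidney cKO 2, the younger of the cKO animals, separated them: Atf4, Atf3, Ddit3, Trib3 and Gdf15 were highest or second there, and Atf5, Asns, Chac1 and Sesn2 were lowest of the 4 there. As log2(CPM + 1) relative to the WT mean, cKO 2 stood at 1.58 for Atf4, 1.80 for Ddit3, 2.46 for Trib3 and 3.00 for Gdf15, and at 1.07 for Asns and -0.18 for Sesn2. In cKO 3 Atf4 stood at 0.08, while Atf5 stood at 1.89 and Gdf15 at 2.37. In that kidney Atf4 RNA was near its WT mean, while Atf5, Trib3 and Gdf15 were above every WT kidney.

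**Figure D3:**
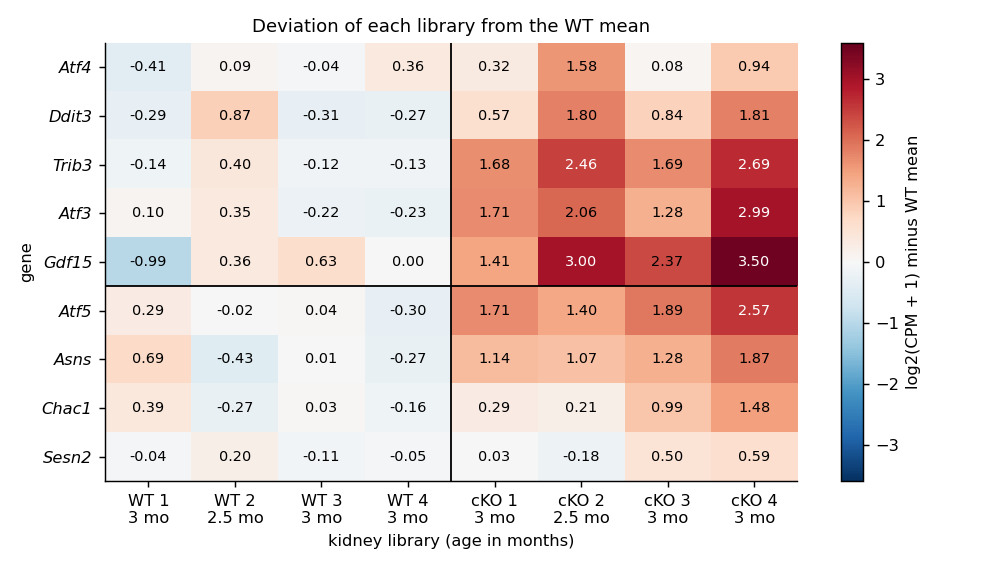
Each cell gives log2(CPM + 1) of a gene (row) in a library (column, with age in months) minus the gene's WT mean. The upper 5 genes are highest or second highest in cKO 2 among the cKO libraries, and the lower 4 are lowest there.

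The WT kidney of the same age, WT 2, was the highest WT library for Atf3, Ddit3, Trib3 and Sesn2 and the lowest for Asns and Chac1. An age coefficient (2.5 against 3 months) beside genotype, fitted after this order was seen, called 0 of the 9 genes by edgeR, against 4 of 13829 genes (0.0289%). At an unadjusted p under 0.05 it held 1, Ddit3, with a log2 difference of 0.97 (edgeR adjusted p = 0.163). Only 1 library per genotype was of that age, and these were also the shallowest of each genotype, so age and library cannot be told apart. The genotype effect in libraries with Y-linked reads differed from that in libraries without them for 0 of the 9 genes by edgeR, against 9 of 13829 genes (0.0651%). For Atf4 the log2 difference between these effects was -1.54. Among WT only WT 1 lacked Y-linked reads, and among cKO only cKO 3 held them, so each effect rests on 1 library on 1 side.

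Set against Atf4 in the same library, which needs no scaling between libraries, Trib3 had 2.18, 2.97, 1.74 and 1.30 reads per 100 Atf4 reads in WT and 8.14, 6.21, 9.77 and 11.4 in cKO. Gdf15 had 4.37, 10.4, 14.1 and 6.40 in WT and 19.7, 25.8, 47.2 and 57.3 in cKO. These ratios, and that of Atf3, did not overlap between the genotypes. The ratio of Atf5 did, since cKO 2 held 19.8 Atf5 reads per 100 Atf4 reads against 13.3 to 35.5 in WT and 59.4 to 80.1 in the other cKO kidneys. For Sesn2 the ratio was 70.2 ± 15.9 in WT and 55.7 ± 29.8 in cKO (SD, n = 4).

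The genes nearest in pattern were ranked by the root mean square difference of log2(CPM + 1) relative to the WT mean over the 8 libraries, among 12656 genes. Nearest to Atf5 were Ifitm10 at 0.18, the amino acid transporter Slc7a5 at 0.18 and Gpr176 at 0.19. Nearest to Trib3 were Ctxn1 at 0.17, Ahnak2 at 0.22 and Itih4 at 0.23. For Gdf15 they were Ahnak2 at 0.52, Tnfrsf12a at 0.53 and Smpdl3b at 0.53, so no gene was as close to Gdf15 as to Atf5. Atf4 lay nearest to Cd47 at 0.18, the nucleolar gene Gnl3 at 0.19 and Utp14a at 0.22. This likeness is a description, without a test.

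Upstream of ATF4, 0 of 16 genes of the eIF2alpha kinases and their regulators rose and 1 fell, with a median log2 fold change of 0.06. These counts are near the shares of all genes, 9.57% higher and 7.14% lower. Dele1, which relays mitochondrial stress to the kinase HRI, fell from 55.5 ± 7.95 to 32.3 ± 7.94 CPM (SD, n = 4), log2 fold change -0.78 (edgeR adjusted p = 0.0326). That call was lost with a sex term, with library size scaling, without the 2.5-month pair and when WT 2, WT 3, WT 4, cKO 2 or cKO 4 was left out, at edgeR adjusted p values of 0.0526 to 0.178. Without WT 4 and cKO 4 it was 0.225. The kinases act by phosphorylation, which RNA counts do not measure.

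Of 13 bZIP proteins that can pair with ATF4 or share its sites, 6 rose and 0 fell, with a median of 0.85. The shares of all tested genes were 9.57% higher and 7.14% lower. Batf rose from 0.222 ± 0.0735 to 1.58 ± 0.4198 CPM, Fosl2 from 8.02 ± 1.65 to 23.4 ± 8.32, Jun from 21.0 ± 3.91 to 49.9 ± 15.2 and Junb from 14.6 ± 2.79 to 30.5 ± 7.49 (SD, n = 4). Batf is a leukocyte gene, and Jun and Junb are immediate early genes too. Without WT 4 and cKO 4 the count was 2, and Jun and Junb lost their calls. Of 17 tested relatives of the 10 genes 2 rose and 3 fell, with a median of -0.27. Their count higher is near the share of all genes, 9.57%, and 7.14% of all genes were called lower. Gdf11, a relative of Gdf15, rose from 5.28 ± 0.901 to 13.2 ± 2.54 CPM and the cAMP-responsive factor Crem from 13.4 ± 2.90 to 31.0 ± 14.8. On the log2 scale Chac2 fell by 1.02 and Fgf1 fell by 1.08. The calls of Crem, Chac2 and Fgf1 were lost with a sex term and without WT 4 and cKO 4, and those of Crem and Chac2 also when 1 library was left out, WT 3, WT 4, cKO 2 or cKO 4 for Crem and cKO 3 or cKO 4 for Chac2.

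**Figure D4:**
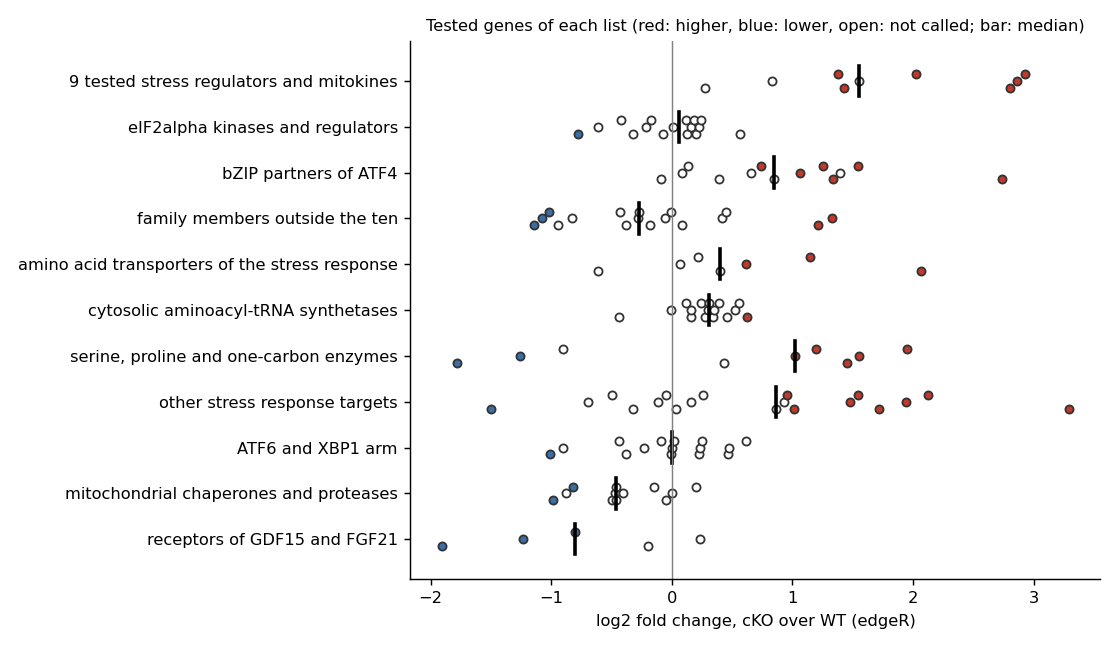
Log2 fold change of cKO over WT (x axis) for each tested gene of the lists (rows), red where called higher, blue where called lower and open where not called, with a bar at the median. Rows are the 9 genes, with a median of 1.55, and 10 pathway lists, of which the ATF6 and XBP1 arm is centred at 0.00. The p53, immediate early and cell type lists are not drawn, and the medians of the macrophage (2.55) and fibroblast (2.23) lists are above that of the 9 genes.

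Among other targets of ATF4, 3 of 7 amino acid transporters rose and 0 fell, with a median of 0.40. Slc7a5, the large neutral amino acid transporter, had 3.11, 2.64, 2.53 and 2.07 CPM in WT and 8.54, 6.85, 11.7 and 16.1 in cKO (log2 fold change 2.07, edgeR adjusted p = 0.00165). The other two, Slc38a2 and Slc1a5, lost their calls with a sex term (edgeR adjusted p = 0.307 and 0.131), without the 2.5-month pair and when WT 3, WT 4 or cKO 4 was left out, as well as without WT 1, WT 2 or cKO 2 for Slc38a2 and without cKO 1 or cKO 3 for Slc1a5. Of 16 genes for cytosolic aminoacyl-tRNA synthetases, which charge tRNAs, and the tRNA exporter Xpot 1 rose and 0 fell. That gene was Sars, higher by a log2 fold change of 0.63 (edgeR adjusted p = 0.0476), and its call was lost with a sex term and when any library other than cKO 1 was left out. Across all tested genes 9.57% were called higher. The median of these 16 genes was 0.30, and their summed level was 855 to 979 CPM in WT and 1011 to 1295 in cKO.

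Serine, proline and one-carbon enzymes moved in both directions, with 5 of 9 higher, 2 lower and a median of 1.02. Their summed level was lower in cKO, at 640 to 796 CPM in WT and 498 to 574 in cKO. All tested genes were called higher in 9.57% and lower in 7.14% of cases. Aldh18a1, the first enzyme of proline synthesis, rose from 2.37 ± 0.475 to 9.12 ± 2.80 CPM and the mitochondrial folate enzyme Mthfd2 from 4.498 ± 1.515 to 13.1 ± 5.17 (SD, n = 4). Psat1 rose by 1.19 on the log2 scale, and Shmt2 fell from 220 ± 63.3 to 91.7 ± 34.8 CPM, and both calls were lost with a sex term, without the 2.5-month pair and without WT 3, WT 4 or cKO 4. The call of Psat1 was also lost without cKO 2 or cKO 3. With a sex term 2 of these enzymes were called higher and 0 lower, and without WT 3, WT 4, cKO 2 or cKO 4 the count higher was 2. Of 19 other stress targets 8 rose and 1 fell, with a median of 0.86. The apoptosis gene Bbc3 rose from 1.15 ± 0.404 to 4.98 ± 1.88 CPM, the mitochondrial carboxykinase Pck2 from 14.7 ± 0.711 to 29.6 ± 5.05 and the stress cofactor Nupr1 from 14.7 ± 7.99 to 56.4 ± 28.3. Vegfa, an angiogenic factor, fell from 83.7 ± 25.1 to 29.6 ± 6.68 CPM. The count higher was 4 without cKO 4 or with a sex term and 0 without WT 4 and cKO 4 together. Nupr1 lost its call with a sex term (edgeR adjusted p = 0.0679). Nupr1, Bbc3, Pck2 and Mthfd2 lost theirs without WT 4 and cKO 4, while Aldh18a1, Slc7a5 and Vegfa kept theirs.

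In the ATF6 and XBP1 arm of the endoplasmic reticulum response 0 of 15 genes rose and 1 fell, with a median of 0.00, and without WT 1 there was 1 that rose. Of mitochondrial chaperones and proteases 0 of 12 rose and 2 fell, with a median of -0.46. Among all genes 9.57% were called higher and 7.14% lower, with a median of -0.01, and the counts of the ATF6 and XBP1 arm are near these shares. The summed level of the mitochondrial chaperones and proteases was 2233 to 2975 CPM in WT and 1672 to 2025 in cKO. Hspd1 fell by 0.99 and Clpx fell by 0.82 on the log2 scale. Edem1, the endoplasmic reticulum gene that fell, and both of these lost their calls with a sex term, with library size scaling and when WT 3, WT 4 or cKO 4 was left out. With a sex term the edgeR adjusted p was 0.158 for Edem1, 0.254 for Hspd1 and 0.29 for Clpx, and without WT 4 alone it was 0.157 for Clpx. Whether these lists differ from the 9 genes was not tested.

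Genes of other lists were called as well, and among all tested genes 9.57% were called higher and 7.14% lower. Of 16 p53 targets 8 rose and 1 fell, and their summed level was 511 to 612 CPM in WT and 687 to 971 in cKO, highest in cKO 2. Cdkn1a, the p53 target that arrests the cell cycle, rose by a log2 fold change of 3.38 (edgeR adjusted p = 0.000952). Macrophage and monocyte markers rose in 9 of 10 cases (median log2 fold change 2.55), with sums of 96.0 to 169 CPM in WT and 343 to 704 CPM in cKO. Fibroblast and matrix genes rose in 9 of 9 (median 2.23), with sums of 148 to 235 CPM in WT and 685 to 1116 CPM in cKO. Of 10 proximal tubule markers 5 fell and 0 rose, and their sum was lowest in cKO 2. That count was 1 with library size scaling, 0 with a sex term and 8 with DESeq2, and it was 0 to 3 without WT 2, WT 3, WT 4, cKO 2, cKO 3 or cKO 4. Collecting duct markers, of a lineage that Six2-Cre spares, rose in 4 of 7 cases and fell in 1. With a sex term 0 rose, and without WT 2, cKO 1 or cKO 4 the count was 2. Of 5 loop and distal tubule markers 2 fell, of 5 endothelial markers 2 fell, and of 5 podocyte markers 0 passed in either direction. None of these markers was at 0 in all libraries. Without WT 4 and cKO 4 the counts higher were 4 for the p53 targets, 5 for the macrophage markers, and 5 for the fibroblast genes. In that fit 0 collecting duct markers were called higher and 0 proximal tubule markers lower. The counts lower there were 1 for the loop and distal tubule markers and 1 for the endothelial markers. Gdf15 and Atf3 are also expressed by macrophages, and the part of cell composition in the results was not tested.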

How the data were processed

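RNA of 8 flash-frozen mouse kidneys was sequenced from stranded mRNA libraries, per the labels' protocols. The deposited files hold 1 expected count per Ensembl gene and library, which the authors made with STAR and RSEM on mm10, per the submitters' processing notes. For versions, annotation and strand setting, the sources used here give nothing. Of 47643 identifiers 47224 were matched to GENCODE M21.

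Expected counts were rounded, filtered with filterByExpr (13829 genes), scaled by TMM and tested two-sided with edgeR 4.0.16 (glmQLFit robust, glmQLFTest), with p adjusted by Benjamini and Hochberg's method over these genes, called under 0.05. DESeq2 1.42.0 and limma-voom (limma 3.58.1) were alternatives, in R 4.3.3, beside other scalings, filters, age, sex and block terms and left-out libraries. Single genes were also tested by exact permutation of log2(CPM + 1) over 35 splits, whose smallest p is 0.0286. SE is the size of the log2 fold change over the square root of F. A library with at least 10 Y-linked counts was taken as bearing a Y chromosome. The main edgeR fit alone was tested on simulated counts, which held no differences of sex or age. The alternatives were not tested in this way. Totals of 9454830 to 15838026 limit precision, and the floor of 3 counts covers counting error only. The labels do not state separate litters, so p values measure the spread between these samples.

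Members and lists were chosen with earlier results of these data known. Named are all 10 members, of each list up to 4 called genes with the smallest adjusted p, or the 2 most abundant where 0 were called, and the 3 nearest genes in pattern. A few other genes, such as Dusp1, Fgfr1 and Fgfr2, are named outside this rule. The age coefficient was added after seeing the data.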

Additional observations from a re-analysis of the deposited data

Results flagged for a closer look

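In 20 groups of 4 libraries (10 genes in each genotype), the highest or lowest library was checked for a gap to its nearest neighbour that exceeds the 95% critical value of Dixon's test. Chance gives about 1 in 20. Ddit3 in WT 2 stood apart at 14.1 CPM, against 5.72 to 5.88 CPM in the other WT kidneys. Trib3 in WT 2 stood apart at 1.84 CPM, against 0.949 to 0.980 CPM in the other WT kidneys. Fgf21 stood apart in WT 3 at 0.245 CPM, which is 3 counts, and in cKO 3 at 0.0711 CPM, which is 1 count, because every other library of the group held 0.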

How the results depend on the processing

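The 9 tested genes kept their direction in all 189 values over 21 alternatives, and 179 of these stayed on the same side of the threshold. Of the rest, 8 lost a call (7 for Ddit3, 1 for Asns) and 2 gained 1, both for Chac1. The 21 leave out the fits within libraries with or without Y-linked reads. There Atf4 stood at -0.07 with such reads. The count of the 9 called higher ran from 4 to 7: 7 with DESeq2, 5 with a sex term, 4 omitting WT 4 and cKO 4, and 6 without the 2.5-month pair. It was 5 without WT 3, WT 4, cKO 2 or cKO 4. With a replicate block it was 6 and all genes called were 2208. Of the named list genes, 7 lost their calls with the replicate block, at edgeR adjusted p values of 0.0547 for Slc1a5, 0.0678 for Slc38a2, 0.0825 for Sars, 0.0521 for Nupr1, 0.0539 for Hspd1, 0.0797 for Clpx and 0.0669 for Fgfr3, and it ended no other call of a gene named here. Same-numbered libraries correlated at -0.078, 0.281, 0.116 and -0.00221, so the numbers were not taken as pairs. All genes called were 2310, against 941 with a sex term, 1397 without the 2.5-month pair, 568 omitting WT 4 and cKO 4, and 1155 to 3093 with 1 library left out. Fewer libraries enter the last 3, and the 3093 was the count without WT 1. The causes of these differences, that with a sex term included, were not tested. The log2 fold change of Podxl, a podocyte marker not called at -0.01, was 0.0489 with upper quartile scaling, 0.17 with library size alone, 0.0628 without the 2.5-month pair and -0.18 to 0.18 with 1 library left out, and the cause was not tested. Of 1155 values of the 55 named list genes 187 lost a call, and of 798 list counts 151 moved by over 1.5 times. Depth limits Fgf21, at 3 and 1 counts, and Chac1, at 31 and 109 counts per genotype.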
